A study of Mus musculus with 22 samples.

Results

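The collagen and laminin genes of mouse lung epithelium were followed in 22 libraries. Members were the genes whose Ensembl ID carried a symbol made of Col, a number, a and a number, or of Lam, a letter from a to c and a number. In the GENCODE M21 annotation 55 genes met this rule, 44 collagens and 11 laminins. Of these, 39 were among the 13750 genes measured at E18.5, a late fetal stage, and 52 among the 15958 genes measured at 6 months, and all 39 were in both sets. Col2a1, Col9a2 and Col10a1 were in neither set. Another 13 were in the 6-month set only, among them Col1a1, Lama1 and Lamc3. The fibrillar collagens numbered 11, of which 6 were measured at E18.5 and 10 at 6 months. The basement membrane chains, meaning the type IV collagens and the laminins, numbered 17, of which 15 and 17 were measured.

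The study deals with Nkx2-1, a transcription factor of lung epithelium, and with NANCI, the long noncoding RNA gene next to it. At E18.5 there were 3 libraries of each of 4 genotypes. WT libraries are NANCI-+/+. NANCI libraries carry the CreERT2:RFP allele on both NANCI copies (NANCI-CreERT2:RFP/CreERT2:RFP). Nkx libraries are Nkx2.1-GFP/+, and Double libraries carry 1 copy of each allele (NANCI-CreERT2:RFP/+:Nkx2.1-GFP/+). At 6 months there were 3 WT, 3 Nkx and 4 Double libraries. The E18.5 cells were pulled down on magnetic beads by EpCAM, an epithelial surface protein, and the 6-month cells were sorted as positive for EpCAM and negative for CD45 (leukocytes) and CD31 (endothelium). Age and enrichment differ together and the ages were normalized separately, so no value was tested between ages. Whether the replicates are separate animals is not in the labels, and p-values then cover only the spread among these libraries, which can be technical.

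Type IV collagen chains form the sheet-like network of basement membranes, and laminins, each an alpha, a beta and a gamma chain, form a second network that epithelial cells bind through integrins. In the alveolus these sheets lie between thin alveolar type 1 cells and capillaries, and both epithelium and endothelium add chains to them. Fibrillar collagens form the cables of the interstitium and are mostly made by fibroblasts.

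The 6 type IV genes sit in 3 head-to-head pairs. Stretches between or next to paired starts are shown for Col4a4 and Col4a3 and for Col4a6 and Col4a5. None lies between the starts of Col4a1 and Col4a2. Coordinates are GRCm38. Col4a1 (ENSMUSG00000031502, chr8:11198423-11312826, minus strand) and Col4a2 (ENSMUSG00000031503, chr8:11312805-11449287, plus strand) overlap by 22 bp at their starts; no source used here says whether the counting used strand, so reads in that overlap may belong to either gene. Col4a4 (ENSMUSG00000067158, chr1:82448423-82586849, minus strand) and Col4a3 (ENSMUSG00000079465, chr1:82586921-82722059, plus strand) are 71 bp apart. Col4a6 (ENSMUSG00000031273, chrX:141165403-141474076, minus strand) and Col4a5 (ENSMUSG00000031274, chrX:141475385-141689234, plus strand) are 1308 bp apart. The first line below is the whole stretch between the 2 chromosome 1 genes (chr1:82586850-82586920, minus strand). The others are the stretches next to the starts of Col4a6 (chrX:141474077-141474326, minus strand) and Col4a5 (chrX:141475169-141475384, plus strand). All are RefSeq promoter sequence of GRCm38.p6, 5′ to 3′ on the named strand, and capitals mark a motif match, CCGCCC for Col4a6 and CCAAT for Col4a5.
between Col4a4 and Col4a3: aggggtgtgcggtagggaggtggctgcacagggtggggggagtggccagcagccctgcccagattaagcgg
upstream of Col4a6: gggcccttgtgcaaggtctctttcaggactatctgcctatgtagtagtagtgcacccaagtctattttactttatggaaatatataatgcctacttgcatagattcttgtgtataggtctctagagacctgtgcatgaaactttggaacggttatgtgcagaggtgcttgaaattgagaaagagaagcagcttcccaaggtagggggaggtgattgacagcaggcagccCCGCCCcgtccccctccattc
upstream of Col4a5: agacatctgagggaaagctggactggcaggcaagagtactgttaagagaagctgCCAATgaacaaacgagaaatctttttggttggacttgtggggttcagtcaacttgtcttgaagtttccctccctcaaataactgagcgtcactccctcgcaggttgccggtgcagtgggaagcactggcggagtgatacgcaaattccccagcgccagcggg

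Of the 52 measured members, 38 had an entry in the RefSeq promoter table. In 250 bp upstream of the start on both strands, GGGCGG (or CCGCCC on the other strand) occurred in 32.7% of 32851 promoters, CCAAT (or ATTGG) in 33.8% and CTCAAG (or CTTGAG), letters found in binding sites of the NKX2 family, in 13.3%. GGGCGG was found for Col4a2, Col4a5 and Col4a6 and CCAAT for Col4a1, Col4a2 and Col4a5. The GGGCGG of Col4a5 lies outside the stretch printed for it. None of the windows of Col4a1, Col4a2, Col4a4, Col4a5 and Col4a6 held CTCAAG. These are letter matches in 1 window and say nothing about binding.

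Levels were compared between genes as log2 expression minus log2 exon length in kb, in the WT libraries. At E18.5 the members with high levels on this per-kb scale included Col4a1 at 12.13 ± 0.33 (SD, n = 3), Lamc1 at 11.74 ± 0.02, Lama3 at 11.73 ± 0.15 and Col4a2 at 11.63 ± 0.62. Lamc1, Lama3 and Col4a2 lay within their spread of each other, and Col4a1 lay within the spread of Col4a2 but not of Lamc1. The highest fibrillar collagen was Col27a1 at 5.97 ± 0.15, while Col3a1 stood at 3.94 ± 0.68 and Col1a2 at 2.87 ± 0.80. The highest member of the other families was Col6a1 (10.07 ± 2.85) among types VI, VIII and X, Col23a1 (9.65 ± 0.29) among transmembrane collagens, Col18a1 (8.31 ± 0.46) among collagens tied to the basement membrane zone, Col12a1 (5.14 ± 0.62) among fibril-associated collagens and Col26a1 (2.82 ± 0.64) among the rest.

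At 6 months Col4a1 (11.78 ± 0.07) and Col4a2 (11.72 ± 0.14) again led on the per-kb scale, and Lamb3 (10.95 ± 0.30) was the highest laminin, within its spread of Lamb2 (10.82 ± 0.04). The highest fibrillar collagens were Col1a1 (7.90 ± 0.51), Col3a1 (7.71 ± 0.56) and Col1a2 (7.16 ± 0.46), the genes of the type I and type III fibrils. In the other families Col6a1 (10.71 ± 1.78), Col23a1 (8.54 ± 0.05), Col18a1 (7.06 ± 0.11), Col16a1 (6.67 ± 0.23) and Col26a1 (2.88 ± 0.83) were highest.

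**Figure D1:**
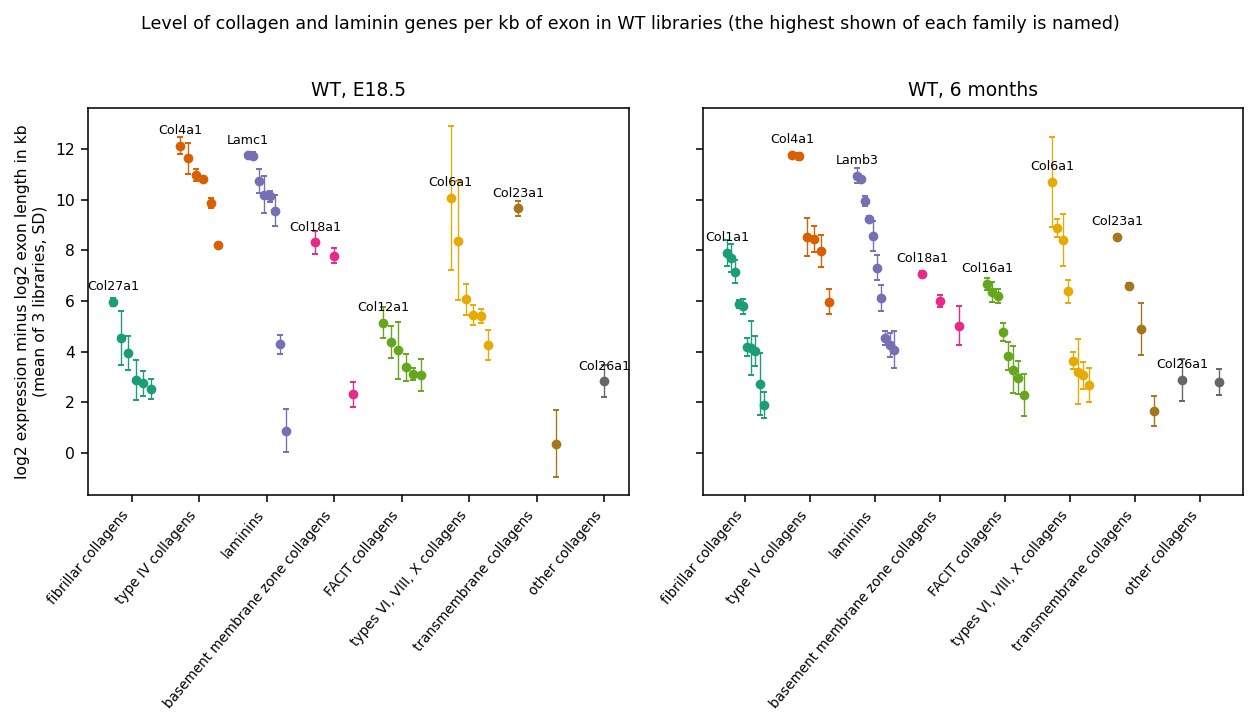
Level of measured members in WT libraries (1 laminin not shown) on the per-kb scale (log2 expression minus log2 exon length in kb, vertical axis), by family, with points at the mean of 3 libraries and bars of 1 SD. At both ages the highest member is Col4a1, at 12.13 and 11.78, and the highest fibrillar collagens are Col27a1 at 5.97 and Col1a1 at 7.90, above the lowest laminins.

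The library medians were near 9.90 at E18.5 and 9.59 at 6 months by normalization, and read totals are not in the values. Distinct values at or under the median numbered 209 to 284 and 128 to 382 per library. They were used as a stand-in for depth, also where depth was a covariate, and that link was inferred. The targeted gene Nkx2-1 does not separate the E18.5 labels: its log2 expression was 14.48 to 14.93 for WT, 14.76 to 14.89 for NANCI, 14.73 to 14.95 for Nkx and 14.69 to 14.90 for Double libraries. At 6 months it was 14.17 to 14.55 for WT, 13.77 to 13.96 for Nkx and 13.75 to 14.43 for Double libraries, so Nkx lay below WT and Double overlapped both. Pan-epithelial markers (Epcam, Cdh1, Krt8 and 4 more) averaged 12.12 to 13.42 per library at E18.5 and 13.57 to 14.51 at 6 months.

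Some libraries stood apart in 2 neighbouring members, Col6a1 (ENSMUSG00000001119, chr10:76708792-76726168, minus strand) and Col6a2 (ENSMUSG00000020241, chr10:76595762-76623630, minus strand), chains of the beaded type VI filaments. At E18.5 the log2 expression of Col6a1 was 8.92 in WT replicate 2 and 7.48 in NANCI replicate 1, against 11.98 to 14.15 in the other 10 libraries. Col6a2 was 8.74 and 7.97 in the same libraries and 11.03 to 13.09 in the others. Col6a3, the third chain of the filament, did not follow, with 10.09 and 9.35 against 7.45 to 9.89. At 6 months WT replicate 2 had Col6a1 at 10.78 and Col6a2 at 10.26, while the other 2 WT libraries had 13.86 to 13.87 and 12.05 to 12.08. Across libraries the Pearson correlation of the genes was 0.995 over 12 libraries at E18.5 and 0.952 over 10 at 6 months, a description in which both share every library. At E18.5 the genes most like Col6a1 after Col6a2, over 12 libraries, were Tle6 (r = 0.91), Gstt1 (0.84) and Upb1 (0.82), all on chromosome 10, and B3galt6 (0.80) on chromosome 4. Upb1 was 1.13 in WT replicate 2 and 1.0 in NANCI replicate 1 and 4.09 to 6.55 elsewhere. Lss, a neighbour on chromosome 10, was 11.58 and 11.60 in the low libraries, inside its range of 11.22 to 12.12 elsewhere. At 6 months Pmvk on chromosome 3 came next, at 0.95 over 10 libraries. The cause was not tested. Results at E18.5 were also computed without both of these libraries, an alternative chosen after seeing the data.

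**Figure D2:**
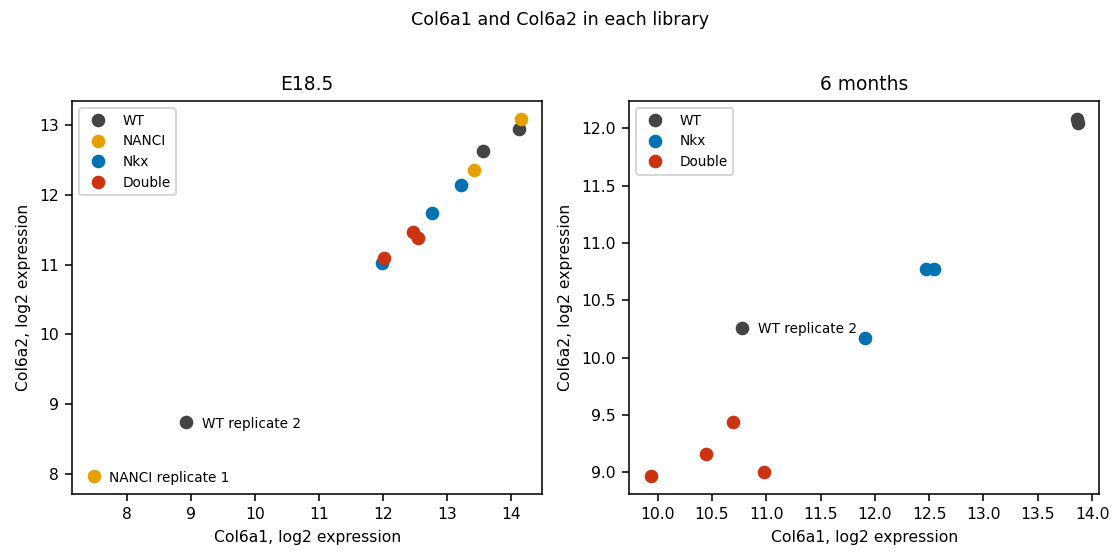
Log2 expression of Col6a1 (horizontal axis) and Col6a2 (vertical axis) in each library at E18.5 and at 6 months, with 1 point per library coloured by genotype. WT replicate 2 (8.92, 8.74) and NANCI replicate 1 (7.48, 7.97) lie far below the other 10 E18.5 libraries, and the 6-month WT replicate 2 (10.78, 10.26) lies below the other WT libraries.

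At E18.5 homozygous NANCI libraries did not differ from WT in any member by the test used. The model was limma over all libraries of an age, with p-values adjusted over all genes and a threshold of 0.05. It called 0 of 39 members and 0.0% of all 13750 genes. At an unadjusted p under 0.05 there were 0 members and 426 genes. The smallest adjusted p of a member was 0.978 for Lamc1, whose difference was 0.25 ± 0.12 (log2 ± SE). Members lay on both sides of 0, with 20 above and 19 below, and their median of 0.01 equalled that of all genes.

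In Nkx libraries at E18.5 the paired chains Col4a1 and Col4a2 and the endostatin-bearing collagen Col15a1 fell and Lamc1 rose against WT. That is 1 of 39 members higher, against 3.67% of all genes, and 3 lower, against 3.65%. In Double libraries Col4a1 and Col4a2 fell with the interstitial collagens Col1a2 and Col3a1, and Lamc1, Lama4, Col4a6 and Col14a1 rose. That is 4 of 39 higher against 7.13% of all genes and 4 lower against 7.47%. Both comparisons use the same WT libraries, so what they share is not independent. The medians over the 39 members were 0.00 for Nkx and -0.12 for Double, beside 0.02 over all genes in both.

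Double against Nkx at E18.5, groups that differ by the NANCI allele, gave 0 of 39 members by limma, against 0.00727% of all genes, which is 1 gene. At an unadjusted p under 0.05 there were 6 members and 559 genes. The smallest adjusted p among members was 0.654 for Lama4, at 0.91 ± 0.24.

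At 6 months the Nkx libraries showed 3 of 52 members lower than WT, the anchoring fibril collagen Col7a1, the type VI chain Col6a3 and Lamc1, against 1.11% of all genes, and 0 higher, against 1.52%. At an unadjusted p under 0.05 there were 16 members and 3495 genes. In Double libraries 23 of 52 members were lower than WT, against 17.9% of all 15958 genes, and 0 were higher, against 18.4% of all genes. The drop covered type IV, fibrillar, type VI and transmembrane collagens and 5 laminin chains. Against Nkx libraries, Double libraries had 18 of 52 lower, against 11.5% of all genes, and 3 higher (Col9a3, Col20a1 and Lama5), against 10.2%. Over all 52 members the median log2 difference was -0.61 for Nkx against WT, -0.75 for Double against WT and -0.24 for Double against Nkx, beside 0.01, 0.06 and 0.03 over all genes. The 3 comparisons share their WT, Nkx or Double libraries with each other.

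**Figure D3:**
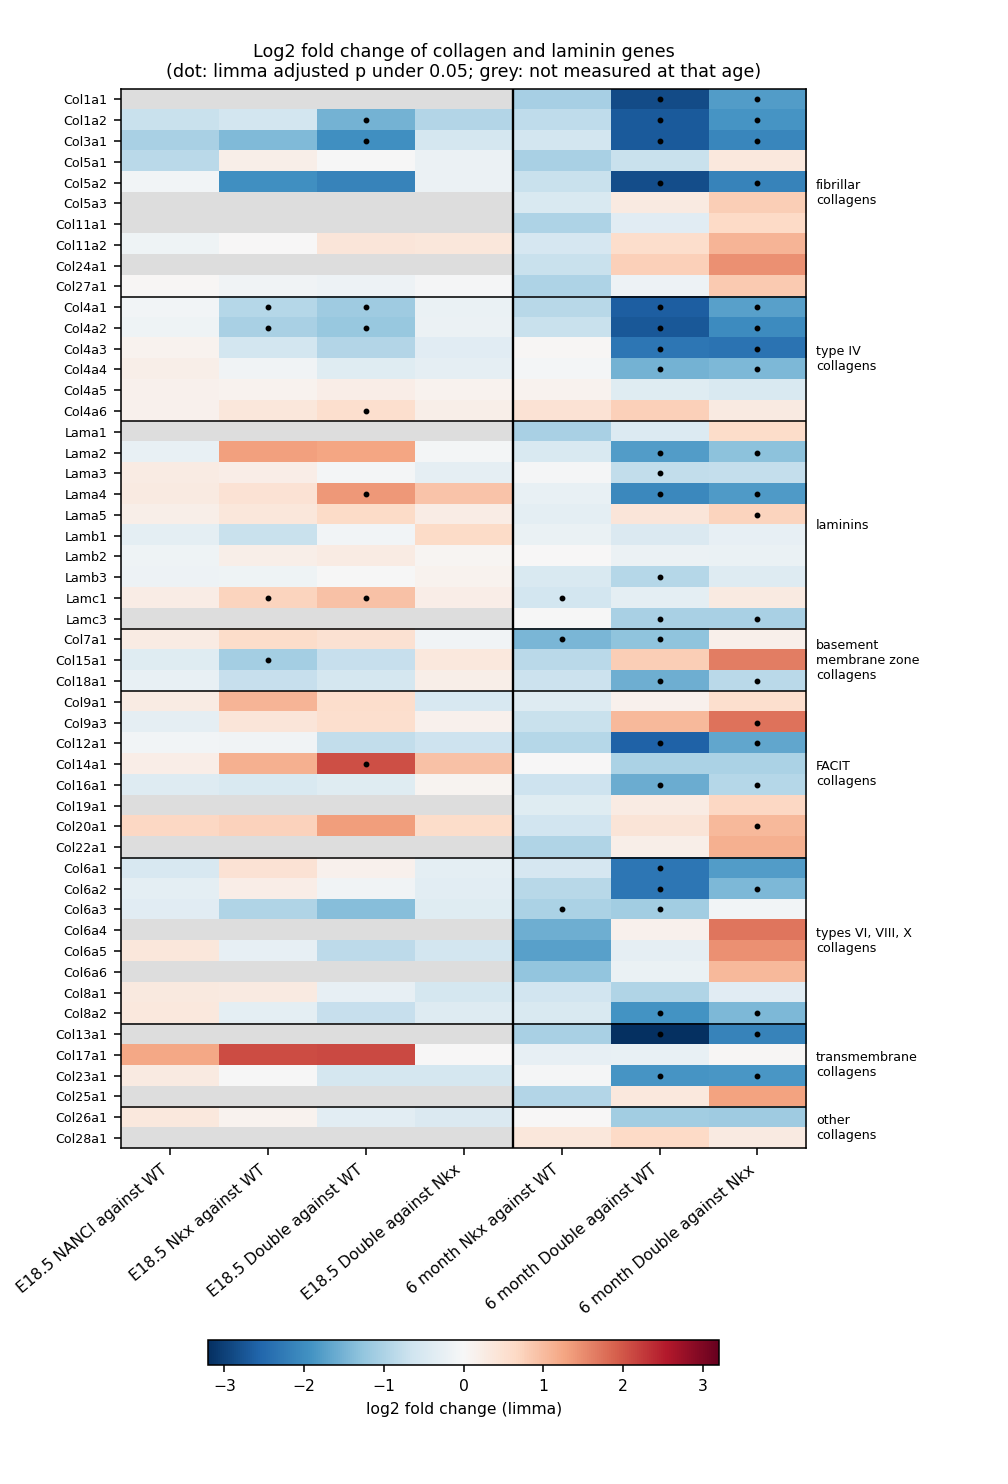
Log2 fold change of measured members (rows, by family; 1 laminin not shown) in the 7 comparisons (columns), with colour for the size and direction and a dot for a limma adjusted p under 0.05; grey marks genes not measured at E18.5. The 6-month Double column against WT holds 23 dots, all on lower values, while the first column, NANCI against WT, holds none.

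Among type IV collagens, Col4a1 and Col4a2, the chains of every basement membrane, moved together. At E18.5 the log2 expression of Col4a1 was 15.09, 15.34 and 14.68 for WT, 14.97, 15.01 and 14.83 for NANCI, 14.29, 14.30 and 13.75 for Nkx and 14.10, 13.58 and 14.05 for Double libraries. Every Nkx and Double library lay below every WT and NANCI library. Against WT, Col4a1 was 1.90-fold lower in Nkx (log2 fold change ± SE of -0.92 ± 0.20, limma adjusted p = 0.0163) and 2.18-fold lower in Double (-1.13 ± 0.20, adjusted p = 0.00313). Col4a2 was 14.52, 14.87 and 13.67 for WT, 14.30, 14.23 and 14.10 for NANCI, 13.49, 13.62 and 12.86 for Nkx and 13.24, 12.90 and 13.29 for Double libraries. It fell by 1.03 in Nkx (SE 0.27, adjusted p = 0.0373) and by 1.21 in Double (SE 0.27, adjusted p = 0.0102). The calls in Nkx depended on single libraries: without WT 1, WT 2 or Nkx 3 the adjusted p of Col4a1 was 0.0599 to 0.0795, and without any of these or Nkx 1 that of Col4a2 was 0.0616 to 0.161. Without both low-Col6a1 libraries Col4a1 in Double stayed called (-0.97, adjusted p = 0.0232), while Col4a2 in Double (-0.95, 0.0543), Col4a1 in Nkx (-0.77, 0.0914) and Col4a2 in Nkx (-0.77, 0.164) did not.

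At 6 months Col4a1 was 14.63, 14.76 and 14.66 for WT, 13.80, 13.63 and 13.95 for Nkx and 11.31, 12.66, 12.17 and 12.08 for Double libraries. The 3 groups formed 3 separate ranges. Double was 6.17-fold lower than WT (-2.63 ± 0.24, limma adjusted p = 1.8e-05) and 3.33-fold lower than Nkx (-1.74 ± 0.24, 0.000657). The step from WT to Nkx (-0.89 ± 0.26, 0.0922) missed the threshold although the ranges were apart. Col4a2 gave 14.47, 14.56 and 14.29 for WT, 13.70, 13.55 and 13.93 for Nkx and 10.93, 12.30, 11.92 and 11.72 for Double libraries, again in 3 separate ranges. It was 6.60-fold lower in Double than in WT (-2.72 ± 0.25, 1.95e-05) and 4.02-fold lower than in Nkx (-2.01 ± 0.25, 0.000404), and in Nkx its value against WT was -0.72 ± 0.27 (0.162). Over libraries the pair had a Pearson r of 0.98 at E18.5 (12 libraries) and 0.996 at 6 months (10 libraries).

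Col4a3 and Col4a4, chains of the alveolar and glomerular network, made a different pair. At E18.5 Col4a3 was 14.12, 14.17 and 14.57 for WT, 14.44, 14.72 and 14.07 for NANCI, 14.05, 13.44 and 13.60 for Nkx and 13.68, 12.36 and 13.99 for Double libraries. Double replicate 2 was lowest, and the differences from WT did not pass (Nkx -0.59, limma adjusted p = 0.355; Double -0.94, 0.0893). Col4a4, at 13.10 to 13.50 for WT and 12.06 to 13.32 for Double, did not pass either (-0.40, 0.458). At 6 months Col4a3 was 12.20, 12.35 and 10.99 for WT, 11.58, 11.73 and 12.37 for Nkx and 8.79, 9.86, 9.81 and 9.69 for Double libraries. Nkx overlapped WT (0.04 ± 0.37, 0.957) and every Double library was below both groups. The gene fell by 2.31 against WT (SE 0.35, 0.000404) and was -2.35 ± 0.35 against Nkx (0.00088). Col4a4 was 11.70, 11.81 and 10.66 for WT, 11.10, 11.20 and 11.65 for Nkx and 9.17, 10.13, 10.29 and 9.96 for Double libraries. It fell by 1.50 against WT (SE 0.31, 0.00282) and by 1.43 against Nkx (SE 0.31, 0.00685). The libraries highest in both genes, WT 1, WT 2 and Nkx 3, were those with a male sex pattern, seen in 0 of 4 Double libraries. Genotype and sex are thus partly mixed here. Both genes kept their calls in every alternative, sex as a covariate among them. The difference from WT ranged from -2.74 to -1.64 for Col4a3 and from -1.87 to -0.97 for Col4a4. The pair had a Pearson r of 0.927 over 12 libraries and 0.988 over 10. Over the 10 alveolar type 1 markers the mean was 13.99 in E18.5 Double replicate 2, against 14.41 and 14.81 in the other Double libraries, and 12.59 in 6-month WT replicate 3, against 13.53 and 13.67 in the other WT libraries. In the 6-month Double replicate 1, which was lowest in both genes, it was 11.91, beside 12.49, 12.47 and 11.88 in replicates 2 to 4. The part of these cells in the pair's levels was not tested.

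Col4a5 and Col4a6, the X-linked chains, did not follow the other pairs. Col4a5 spanned only 13.49 to 13.85 over all E18.5 libraries and passed in no comparison at either age with all values as deposited. At 6 months it was 11.62, 11.31 and 10.63 for WT, 11.05, 11.20 and 11.65 for Nkx and 10.88, 10.63, 10.70 and 11.02 for Double libraries, and Double overlapped WT (-0.38 ± 0.22, adjusted p = 0.196; centred on housekeeping genes it passed, at -0.60, 0.045). Col4a6 rose at E18.5: it was 11.21, 11.22 and 11.20 for WT, 11.50, 11.28 and 11.28 for NANCI, 11.27, 11.78 and 11.63 for Nkx and 11.59, 11.90 and 11.77 for Double libraries. Double lay 1.46-fold above WT with no overlap (0.54 ± 0.14, limma adjusted p = 0.0239). That call was lost without WT 1, Double 2 or Double 3 (0.0723 to 0.0935), without both low-Col6a1 libraries (0.55, 0.0621) and when values were centred on housekeeping genes (0.34, 0.234). At 6 months Col4a6 was 9.28, 8.38 and 9.23 for WT, 9.40, 9.34 and 9.54 for Nkx and 9.83, 9.36, 9.31 and 10.38 for Double libraries, 0.76 ± 0.28 above WT in Double (0.0517). This rise passed with depth as a covariate, with library weights and without WT 1, Double 2 or Double 3, and in no other alternative. The pair had an r of 0.615 over 12 libraries and -0.145 over 10. In 6-month Double libraries 4 of 6 type IV genes fell against WT, beside 17.9% of all genes, and 4 of 6 against Nkx, beside 11.5%, all of them chains of the chromosome 8 and chromosome 1 pairs.

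**Figure D4:**
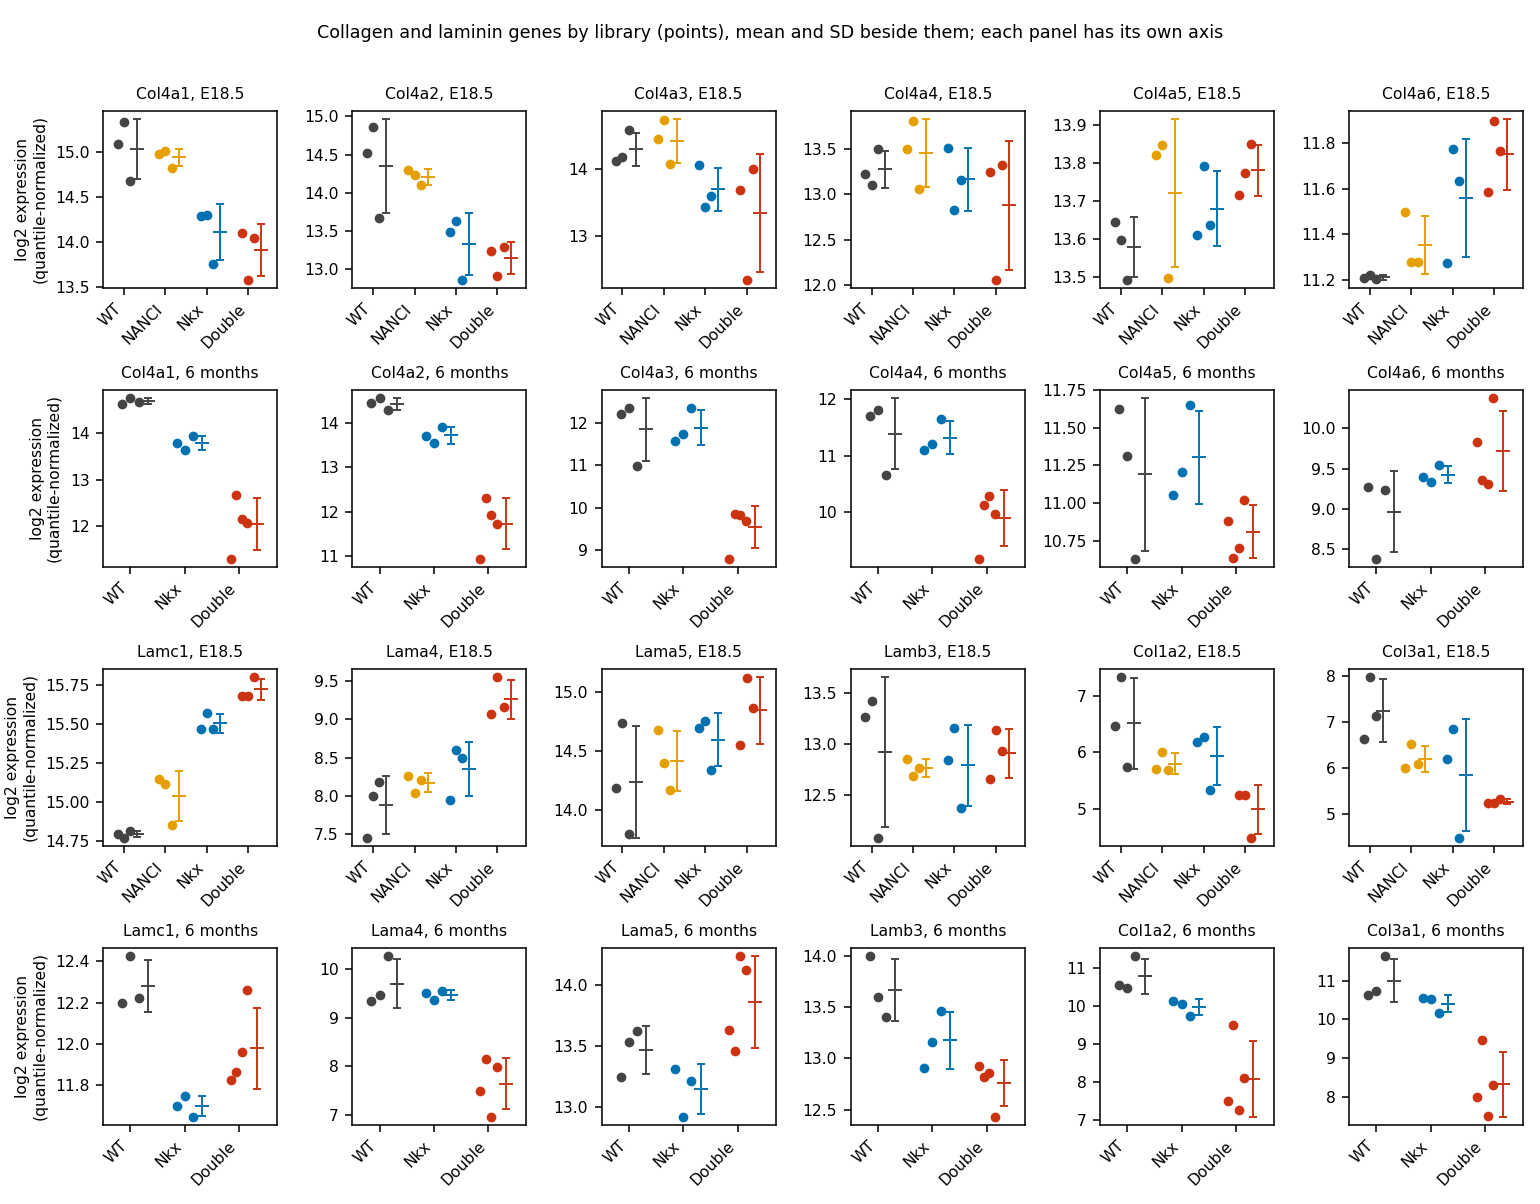
Log2 expression (vertical axis, own scale per panel) of the type IV collagens, 4 laminins, Col1a2 and Col3a1 by genotype, with 1 point per library and the mean and SD beside them, at E18.5 and 6 months. In the 6-month panels the Double libraries of Col4a1 (11.31 to 12.66) lie under WT (14.63 to 14.76), and in the E18.5 panel of Lamc1 they lie above it (15.68 to 15.80 against 14.77 to 14.81).

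Among laminins, the gamma chain Lamc1 (ENSMUSG00000026478, chr1:153218922-153332786, minus strand), a part of most laminins, rose at E18.5. It was 14.79, 14.77 and 14.81 for WT, 15.15, 15.11 and 14.85 for NANCI, 15.47, 15.57 and 15.47 for Nkx and 15.68, 15.68 and 15.80 for Double libraries, 4 ranges that did not overlap. The differences from WT were 0.71 ± 0.12 for Nkx (limma adjusted p = 0.00418) and 0.93 ± 0.12 for Double (0.000392), and 0.25 ± 0.12 for NANCI did not pass (0.978). Without both low-Col6a1 libraries they were 0.70 for Nkx (0.0291) and 0.92 for Double. Centred on housekeeping genes, Lamc1 in Nkx was 0.63 ± 0.20 and lost its call (0.111). At 6 months Lamc1 was 12.20, 12.43 and 12.22 for WT, 11.70, 11.75 and 11.65 for Nkx and 11.83, 11.86, 11.96 and 12.26 for Double libraries. It fell by 0.58 in Nkx (SE 0.13, 0.0383), a call lost when any 1 of the 6 libraries was left out (0.0646 to 0.146), and did not pass in Double (-0.30 ± 0.12, 0.0651), where centring on housekeeping genes gave -0.52 (0.0166).

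Lama4 (ENSMUSG00000019846, chr10:38965515-39110188, plus strand), an alpha chain best known from endothelium and muscle, rose at E18.5 and fell at 6 months. At E18.5 it was 7.46, 8.0 and 8.18 for WT, 8.27, 8.03 and 8.21 for NANCI, 7.94, 8.60 and 8.49 for Nkx and 9.07, 9.55 and 9.16 for Double libraries. Double was above all others, 2.61-fold over WT (1.38 ± 0.24, limma adjusted p = 0.00256), also without both low-Col6a1 libraries (1.44). At 6 months it was 9.34, 9.48 and 10.27 for WT, 9.50, 9.36 and 9.54 for Nkx and 7.50, 8.14, 6.96 and 7.98 for Double libraries. Double was below all others, 4.14-fold under WT (-2.05 ± 0.29, 0.000306) and 3.53-fold under Nkx (-1.82 ± 0.29, 0.00154). The change of direction between ages was not tested.

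Lama3 and Lamb3 are chains of the laminin of epithelial adhesion. Neither passed at E18.5, where in Double against WT they differed by -0.07 and -0.02. At 6 months Lamb3 was 14.00, 13.60 and 13.41 for WT, 12.91, 13.16 and 13.46 for Nkx and 12.92, 12.82, 12.86 and 12.43 for Double libraries, and fell 1.88-fold in Double against WT with no overlap (-0.91 ± 0.18, limma adjusted p = 0.00217). Lama3 was 12.40, 12.25 and 11.33 for WT, 11.63, 11.81 and 12.40 for Nkx and 11.05, 11.52, 11.22 and 10.99 for Double libraries. It fell by 0.80 (SE 0.26, 0.0296), with WT replicate 3 inside the Double range. Without WT 1, WT 2, Double 1 or Double 4 the call was lost (0.0652 to 0.122). It was lost also with sex as a covariate, with a replicate block and without the mean-variance trend. Over all alternatives the value ranged from -1.13 to -0.24, with a limma adjusted p of up to 0.356.

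Lama5 and Lamb1 join Lamc1 in the laminin of mature epithelial basement membranes. Lama5 was 13.24, 13.53 and 13.62 for WT, 13.31, 12.92 and 13.21 for Nkx and 13.63, 13.45, 14.23 and 14.12 for Double libraries at 6 months. It rose 1.64-fold in Double over Nkx with no overlap (0.72 ± 0.19, limma adjusted p = 0.0211), a call lost without Nkx 2, Nkx 3 or Double 4 (0.0522 to 0.0913) and when centred on housekeeping genes (0.64, 0.0703), and did not pass against WT (0.40, 0.13). At E18.5 it was 0.61 ± 0.23 above WT in Double (0.109), and without both low-Col6a1 libraries 0.86 (0.0287). Lamb1 passed in no comparison, though centred on housekeeping genes it did in E18.5 Nkx (-0.79, 0.043); in 6-month Double libraries it was -0.46 ± 0.24 against WT (0.149). Of the remaining chains, Lama2 was 8.35 to 8.87 for WT and 6.02 to 7.82 for Double libraries at 6 months (-1.78 ± 0.41, 0.00536). It fell also against Nkx (-1.31 ± 0.41, 0.0396), a call lost without any 1 of Nkx 1, Nkx 2, Nkx 3, Double 1 or Double 3 (0.0819 to 0.114). At E18.5 Lama2 was 1.32 ± 0.45 above WT in Nkx (0.0975) and, without both low-Col6a1 libraries, 1.77 (0.048) in Nkx and 1.72 (0.0326) in Double. Lamc3 was lower, at 5.45 to 6.40 for Double libraries, than in WT at 6.33 to 7.22 (-1.05 ± 0.34, 0.033) and Nkx (-1.05 ± 0.34, 0.0496) at 6 months. Without WT 1, WT 3, Double 1, Double 3 or Double 4 the adjusted p against WT was 0.0576 to 0.135. Without any 1 of 6 of the Nkx and Double libraries, all but Double 2, that against Nkx was 0.0819 to 0.151. In 6-month Double libraries 5 of 11 laminins fell against WT, beside 17.9% of all genes. Against Nkx 3 fell, beside 11.5%, and 1 rose, beside 10.2%.

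Among fibrillar collagens, at E18.5 Col1a2 (ENSMUSG00000029661, chr6:4504814-4541544, plus strand) was 6.47, 7.33 and 5.73 for WT, 5.69, 6.01 and 5.68 for NANCI, 6.18, 6.26 and 5.33 for Nkx and 5.25, 5.23 and 4.48 for Double libraries. Col3a1 (ENSMUSG00000026043, chr1:45311538-45349706, plus strand) was 6.62, 7.97 and 7.13 for WT, 5.99, 6.52 and 6.07 for NANCI, 6.18, 6.85 and 4.48 for Nkx and 5.25, 5.23 and 5.32 for Double libraries. For both, every Double library was below every WT library, and these were low levels, where few reads set a value. In Double Col1a2 fell by 1.52 (SE 0.43, limma adjusted p = 0.0336) and Col3a1 by 1.97 (SE 0.52, 0.0248). Col1a2 lost its call without WT 1, WT 2, Double 2 or Double 3 (0.0621 to 0.124) and Col3a1 without WT 2 or any 1 Double library (0.0536 to 0.0891). Without both low-Col6a1 libraries they were -1.11 (0.157) and -1.61 (0.118). The other 4 measured fibrillar genes did not pass, among them Col27a1, the highest per kb, at 9.28 to 9.87 over all 12 libraries.

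At 6 months 4 of 10 fibrillar collagens fell in Double libraries, Col1a1, Col1a2, Col3a1 and Col5a2, beside 17.9% of all genes, and 4 fell against Nkx, beside 11.5%. Col1a1 (ENSMUSG00000001506, chr11:94936224-94953042, plus strand) was 10.16, 10.53 and 11.17 for WT, 9.94, 9.28 and 9.46 for Nkx and 7.54, 9.05, 6.90 and 7.57 for Double libraries. Col1a2 was 10.57, 10.49 and 11.33 for WT, 10.15, 10.05 and 9.75 for Nkx and 7.50, 9.50, 7.27 and 8.12 for Double libraries. In both genes Double replicate 2 came closest to Nkx and no group overlapped another. Against WT Col1a1 was 7.23-fold lower (-2.85 ± 0.42, limma adjusted p = 0.000376) and Col1a2 6.48-fold lower (-2.70 ± 0.44, 0.000678). Against Nkx they fell by 1.79 (SE 0.42, 0.0111) and 1.89 (SE 0.44, 0.0101), and Col1a1 missed the threshold without Nkx 1 (-1.60, 0.0524). The genes had a Pearson r of 0.984 over 10 libraries.

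Col3a1 was 10.62, 10.74 and 11.64 for WT, 10.54, 10.51 and 10.15 for Nkx and 7.98, 9.46, 7.51 and 8.30 for Double libraries at 6 months. Col5a2, a chain of the type V collagen that sits in type I fibrils, was 9.29, 9.13 and 8.98 for WT, 8.27, 8.31 and 8.69 for Nkx and 6.52, 7.20, 4.55 and 6.91 for Double libraries. The 3 groups of each were apart, with Double lowest. Col3a1 fell by 2.69 against WT (SE 0.39, limma adjusted p = 0.00034) and was -2.09 ± 0.39 against Nkx (0.00327), and Col5a2 by 2.84 against WT (SE 0.51, 0.00124), with -2.13 ± 0.51 against Nkx (0.0117). The 6 other fibrillar genes did not pass against WT, with log2 differences from -0.70 for Col5a1 to 0.75 for Col24a1. In Nkx against WT none of the 10 passed and all 10 values were below 0, with a median of -0.76.

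Of the collagens tied to the basement membrane zone, Col15a1 was 10.14, 10.71 and 10.50 for WT, 10.08, 10.00 and 10.11 for NANCI, 8.96, 9.87 and 9.28 for Nkx and 9.40, 10.22 and 9.50 for Double libraries at E18.5. It fell by 1.08 in Nkx (SE 0.26, limma adjusted p = 0.0232), with no overlap, and did not pass in Double (-0.74, 0.0737). The Nkx call was lost without WT 2, Nkx 1 or Nkx 3 (0.0787 to 0.0885) and without both low-Col6a1 libraries (0.116). Col7a1, the collagen of anchoring fibrils, was 9.25, 9.17 and 9.62 for WT, 7.91, 7.53 and 8.22 for Nkx and 7.58, 8.39, 8.25 and 7.98 for Double libraries at 6 months. Nkx and Double shared a range below WT: it fell by 1.46 in Nkx (SE 0.26, 0.0199) and by 1.30 in Double (SE 0.24, 0.00162). The Nkx call was lost without WT 2, WT 3, Nkx 1 or Nkx 2 (0.0565 to 0.0921). Col18a1, the other endostatin-bearing collagen, was 9.77 to 9.99 for WT, 9.15 to 9.23 for Nkx and 8.07 to 8.77 for Double libraries, lower in Double than in WT (-1.55 ± 0.17, 6.05e-05) and Nkx (-0.87 ± 0.17, 0.00474).

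Fibril-associated collagens split. Col14a1 was 5.94, 6.79 and 5.83 for WT, 6.41, 6.65 and 6.17 for NANCI, 6.47, 7.65 and 7.84 for Nkx and 7.93, 8.62 and 8.23 for Double libraries at E18.5, so Double was above all other libraries. It rose 4.20-fold over WT (2.07 ± 0.38, limma adjusted p = 0.00338), and 2.37 on the log2 scale without both low-Col6a1 libraries. At 6 months Col12a1 was 10.32, 10.24 and 9.80 for WT, 9.02, 8.88 and 9.73 for Nkx and 6.82, 8.39, 7.40 and 7.57 for Double libraries, 3 separate ranges. It fell by 2.58 against WT (SE 0.33, 0.00015) and by 1.67 against Nkx (SE 0.33, 0.00455). Col16a1 fell with it (-1.59 ± 0.21, 0.000175, against WT). Col9a3 and Col20a1 rose in Double over Nkx: Col9a3 was 4.50, 5.15 and 5.55 for Nkx and 7.03, 7.74, 6.02 and 6.47 for Double (1.75 ± 0.48, 0.0233), and Col20a1 was 8.21, 7.83 and 8.24 and 8.60, 9.32, 9.41 and 9.19 (1.04 ± 0.24, 0.0107). Neither passed against WT, where Col9a3 was 6.14, 5.15 and 6.01 and Col20a1 8.55, 8.44 and 9.17. The call of Col9a3 was lost without Nkx 1, Nkx 2 or Double 1 (0.0575 to 0.0996).

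Of the type VI chains at 6 months, Col6a1 was 13.87, 10.78 and 13.86 for WT, 12.54, 12.47 and 11.91 for Nkx and 9.94, 10.70, 10.98 and 10.45 for Double libraries, with WT replicate 2 inside the Double range. It fell by 2.32 against WT (SE 0.61, limma adjusted p = 0.0114). Without WT 2 the value was -3.35 (2.96e-05), without WT 1 -1.81 (0.0534) and without WT 3 -1.81 (0.0553). Col6a2, at 12.05, 10.26 and 12.08 for WT, 10.77, 10.77 and 10.18 for Nkx and 8.97, 9.44, 9.0 and 9.16 for Double libraries, also fell by 2.32 (SE 0.37, 0.000618) and by 1.43 against Nkx (SE 0.37, 0.0177), the latter lost without Nkx 1 or Nkx 2 (0.0648 to 0.0687). Without WT 2, Col6a1 (-1.56, 0.0492) and Col6a2 (-1.50, 0.0171) were called in Nkx against WT, where they had not passed with all libraries (-0.53, 0.668, and -0.89, 0.217). Col6a3 was 9.45, 10.15 and 10.30 for WT, 9.13, 8.91 and 8.80 for Nkx and 8.91, 9.25, 8.65 and 8.64 for Double libraries. It fell by 1.02 in Nkx (SE 0.24, 0.0485) and 1.10 for Double (SE 0.22, 0.00273), and the Nkx call was lost without any library but WT 1 (0.104 to 0.174). At E18.5 Col6a1 and Col6a2 did not pass in Double (0.14 and -0.12), with an SE of 1.53 and 1.20. Without both low libraries they were -1.50 ± 0.35 (0.0237) and -1.47 ± 0.31 (0.0146); as the libraries were left out for these genes' own values, this is a description.

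The largest fall of any member in 6-month Double libraries against WT was that of a transmembrane collagen, Col13a1 (ENSMUSG00000058806, chr10:61838236-61979108, minus strand), known from cell adhesion sites. It was 8.67, 8.82 and 8.90 for WT, 7.91, 7.38 and 7.96 for Nkx and 5.45, 6.82, 5.55 and 4.67 for Double libraries, 3 separate ranges. It was 9.06-fold lower than in WT (-3.18 ± 0.42, limma adjusted p = 0.000176) and 4.38-fold lower than in Nkx (-2.13 ± 0.42, 0.00431). Col23a1, another transmembrane collagen, was 11.09, 11.01 and 11.09 for WT, 11.17, 10.93 and 10.99 for Nkx and 8.88, 8.75, 9.33 and 9.73 for Double libraries. Here Nkx overlapped WT, and Double fell by 1.89 against WT (SE 0.20, 4.49e-05) and 1.86 against Nkx (SE 0.20, 0.000177). The network collagen Col8a2 fell likewise (-1.90 ± 0.28, 0.000384, against WT). The 15 falls against WT smaller than those of the first 8 members ranged from -2.32 to -0.80, and the 10 such against Nkx from -1.79 to -0.87. At E18.5 30 of 39 members passed in no comparison, and 25 of 52 at 6 months. Of these, 8 at E18.5 and 8 at 6 months had a mean log2 expression under 6 in WT. The matching share of all genes was not computed, so these counts say nothing particular to the members. Col17a1, the hemidesmosomal collagen, had one of the largest values at E18.5 (2.10 ± 0.85 for Double, adjusted p = 0.127) at a low level, 1.66 to 4.29 for WT, and did not pass.

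Fibrillar collagens were then set against basement membrane chains, as medians of log2 differences within each comparison. Against WT at E18.5 the fibrillar and basement membrane medians were -0.43 and 0.12 for NANCI, -0.35 and 0.10 for Nkx and -0.85 and -0.02 for Double libraries. In Double against Nkx they were -0.19 and 0.06. At 6 months they were -0.76 and -0.21 for Nkx and -0.53 and -0.80 for Double libraries against WT, and 0.49 and -0.49 for Double against Nkx. So the fibrillar median was the lower one in the 4 E18.5 comparisons and in 6-month Nkx, and the higher one in both 6-month Double comparisons, where 4 fibrillar genes fell in each and 3 or 6 of the 10 were above 0. Those 4 (Col1a1, Col1a2, Col3a1 and Col5a2) had log2 expression of 8.98 to 11.64 in 6-month WT libraries, and the others 4.45 to 9.19. Against WT the largest fall in 6-month Double was -2.85 among fibrillar genes and -2.72 among basement membrane chains. The higher fibrillar median thus does not mean that the highly expressed fibrillar genes fell less. These medians rest on 6 or 10 fibrillar genes, no test was made of them, and in 6-month Double against WT the difference of 0.27 became -0.15 with sex as a covariate. The sex pattern of the libraries was not balanced: the male pattern was seen in 2 of 3 WT, 1 of 3 Nkx and 0 of 4 Double libraries at 6 months, and in 1 of 3 WT, 3 of 3 NANCI, 1 of 3 Nkx and 1 of 3 Double libraries at E18.5. Per library, the fibrillar mean minus the basement membrane mean was -5.96, -5.78 and -5.49 for WT, -6.60, -5.98 and -6.16 for NANCI, -6.48, -6.22 and -6.51 for Nkx and -6.46, -6.35 and -7.38 for Double libraries at E18.5. Every Nkx, Double and NANCI library was below every WT library. At 6 months it was -2.93, -3.28 and -2.90 for WT, -3.46, -3.52 and -3.71 for Nkx and -3.18, -2.40, -3.85 and -3.23 for Double libraries, and Double spanned both other groups.

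The enzymes that fold, trim and crosslink collagen, 22 measured at E18.5 and 26 at 6 months, had 1 member higher and 1 lower in E18.5 Nkx, beside 3.67% and 3.65% of all genes. The prolyl hydroxylase subunit P4ha3 rose (1.06 ± 0.23, limma adjusted p = 0.0165) and P4ha1 fell (-0.75 ± 0.14, 0.00753). In Double 4 rose and 2 fell, beside 7.13% and 7.47%, led by the crosslinker Loxl2 (3.45 ± 0.45, 0.000367), P4ha3 (1.27 ± 0.23, 0.00353) and P4ha1 (-0.95 ± 0.14, 0.000967). At 6 months none passed in Nkx against WT. In Double 10 of 26 fell and 3 rose against WT, beside 17.9% and 18.4% of all genes, led by Pcolce2 (-3.58 ± 0.45, 0.000128), which aids removal of the procollagen tail, and the crosslinkers Lox (-2.55 ± 0.39, 0.000467) and Loxl1 (-2.55 ± 0.34, 0.000193). Against Nkx 8 fell and 3 rose, beside 11.5% and 10.2%, with Plod2, a lysyl hydroxylase, at -2.22 ± 0.32 (0.000751).

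Basement membrane partners, 14 genes at both ages, showed 3 higher and 2 lower in each of Nkx and Double against WT at E18.5, where 3.67% and 3.65% of all genes passed in Nkx and 7.13% and 7.47% in Double. Frem1, of the sheet that anchors epithelium to mesenchyme, fell by 2.10 in Nkx (SE 0.29, limma adjusted p = 0.00114) and 3.15 for Double (SE 0.29, 4.97e-05), and Ntn4, a laminin-like netrin, by 0.91 (SE 0.25, 0.0426) and 1.08 (SE 0.25, 0.0109). Fras1 and Frem2 went the other way and passed as higher in Nkx, as did Fras1 in Double. Nid1, which links laminin to type IV collagen, rose by 1.20 in Double (SE 0.35, 0.0364), and the peroxidase that crosslinks type IV collagen, Pxdn, by 0.88 in Nkx (SE 0.17, 0.00899). Pxdn passed as higher in Double too. At 6 months the integrin ligand Npnt was the 1 gene of 14 that fell in Nkx (-0.75 ± 0.11, 0.00877), beside 1.11% of all genes. In Double 9 of 14 fell against WT, beside 17.9% of all genes, led by the perlecan gene Hspg2 (-2.95 ± 0.30, 3.58e-05), Egflam (-2.44 ± 0.51, 0.00323) and Npnt (-2.13 ± 0.10, 5.38e-07). Nid1 and Pxdn, higher in Double at E18.5, were among the 9. Against Nkx 8 fell, beside 11.5%, and Smoc1 rose (1.71 ± 0.48, 0.0242).

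Of 16 matrix receptors, Itga2, the alpha chain of a collagen-binding integrin, rose at E18.5 in Nkx (2.78 ± 0.46, limma adjusted p = 0.00338) and Double (2.76 ± 0.46, 0.00199), joined in Double by Itgb4, the beta chain of hemidesmosomes (1.34 ± 0.30, 0.0108). At 6 months Itga7, a laminin receptor chain, rose in Nkx (1.25 ± 0.21, 0.0171) and Double (1.96 ± 0.20, 3.24e-05). In Double 4 of 16 rose and 3 fell against WT, shares near the 18.4% and 17.9% of all genes, with the hemidesmosome linker Dst at -1.50 ± 0.15 (3.51e-05) and the collagen receptor Itga1 at -1.45 ± 0.33 (0.00517). Against Nkx 5 rose and 2 fell, beside 10.2% and 11.5%, with Itga2 at 1.44 ± 0.38 (0.0202) and Itgb4 at 1.37 ± 0.24 (0.00246). Among matrix proteases and inhibitors, 6 at E18.5 and 8 at 6 months, Timp2 rose by 0.83 in Nkx (SE 0.15, 0.00698) and 0.82 for Double (SE 0.15, 0.00377) at E18.5. At 6 months the membrane protease Mmp14 rose in Double (2.11 ± 0.20, 2.06e-05), beside 18.4% of all genes. Another 4 fell, beside 17.9%, among them Timp3 (-1.16 ± 0.19, 0.00084) and Mmp2 (-1.14 ± 0.36, 0.0296). None of the 8 passed in 6-month Nkx.

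Markers of other cells moved with the same groups, and in bulk RNA fewer cells of a type and less RNA per cell cannot be told apart. In 6-month Double libraries all 13 of 13 measured endothelial markers fell against WT (median -3.22), led by Plvap (-3.84 ± 0.35, limma adjusted p = 1.68e-05), and all 13 fell against Nkx. Their mean level per library was 11.25 to 12.39 for WT, 10.60 to 11.57 for Nkx and 8.30 to 9.41 for Double libraries. Of 12 mesenchymal markers 9 fell against WT, led by the fibroblast factor Tcf21 (-3.70 ± 0.31, 1.07e-05), and 6 against Nkx, with a mean of 8.55 to 9.27 for WT, 7.97 to 8.71 for Nkx and 5.99 to 7.24 for Double libraries. No endothelial or mesenchymal marker was at a library's lowest value. Of 5 mesothelial markers 3 fell against WT and 1, Msln, rose (mean 7.94 to 8.27 for WT, 5.87 to 7.09 in Double). Of the alveolar type 1 markers 5 of 10 fell (12.59 to 13.67 for WT, 11.88 to 12.49 in Double), led by Rtkn2 (-2.69 ± 0.65, 0.0077), and 7 of 10 type 2 markers fell, while 5 of 7 pan-epithelial markers rose. Of 13 leukocyte markers 1 rose and 1 fell, of 2 chondrocyte markers 1 fell and of 6 basal cell markers 2 rose. Beside these counts, 17.9% of all genes fell and 18.4% rose in Double against WT, and 11.5% fell against Nkx. A call or 2 in a short list does not set it apart from these shares. In 6-month Nkx libraries no marker of these lists passed. Against WT all 13 endothelial values were below 0 there (median -0.73), as were 11 of 12 mesenchymal values (median -0.33, 1 above 0). The other marker lists held values on both sides of 0. The part of any of these cells in the collagen and laminin results was not tested.

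The same markers followed another pattern at E18.5. In Double libraries 7 of 9 leukocyte markers fell, with means of 6.55 to 6.96 for WT, 5.95 to 6.37 for NANCI, 3.56 to 4.85 for Nkx and 3.76 to 4.56 for Double libraries, where some markers were at a library's lowest value. Of 9 endothelial markers 3 fell in Double, led by Esam (-1.51 ± 0.25, limma adjusted p = 0.00194), with means of 7.31 to 8.18 for WT and 6.44 to 7.57 for Double. Of 6 mesenchymal markers Postn fell (-1.99 ± 0.56, 0.0331) and Dcn rose (1.60 ± 0.43, 0.0261), with means of 6.38 to 6.95 for WT and 5.64 to 5.95 for Double. Of 3 mesothelial markers 2 rose, Upk3b by 3.24 ± 0.53 (0.00167) and Msln by 1.18 ± 0.28 (0.0126), with means of 7.95 to 8.38 for WT and 9.32 to 10.14 for Double. Of the alveolar markers 3 of 10 type 1 and 10 of 10 type 2 genes fell in Double. There 2 of 7 pan-epithelial and 1 of 2 basal markers rose, and of 4 chondrocyte markers 1 rose and 1 fell. Beside the marker counts, 7.47% of all genes fell and 7.13% rose in Double, and 3.65% fell in Nkx. A single call in a short list does not set it apart from these shares. In Nkx 4 leukocyte, 1 endothelial (Esam), 1 mesenchymal (Postn), 3 type 1 and 4 type 2 markers fell and no marker of the other lists passed. Their part in the E18.5 results was not tested either.

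**Figure D5:**
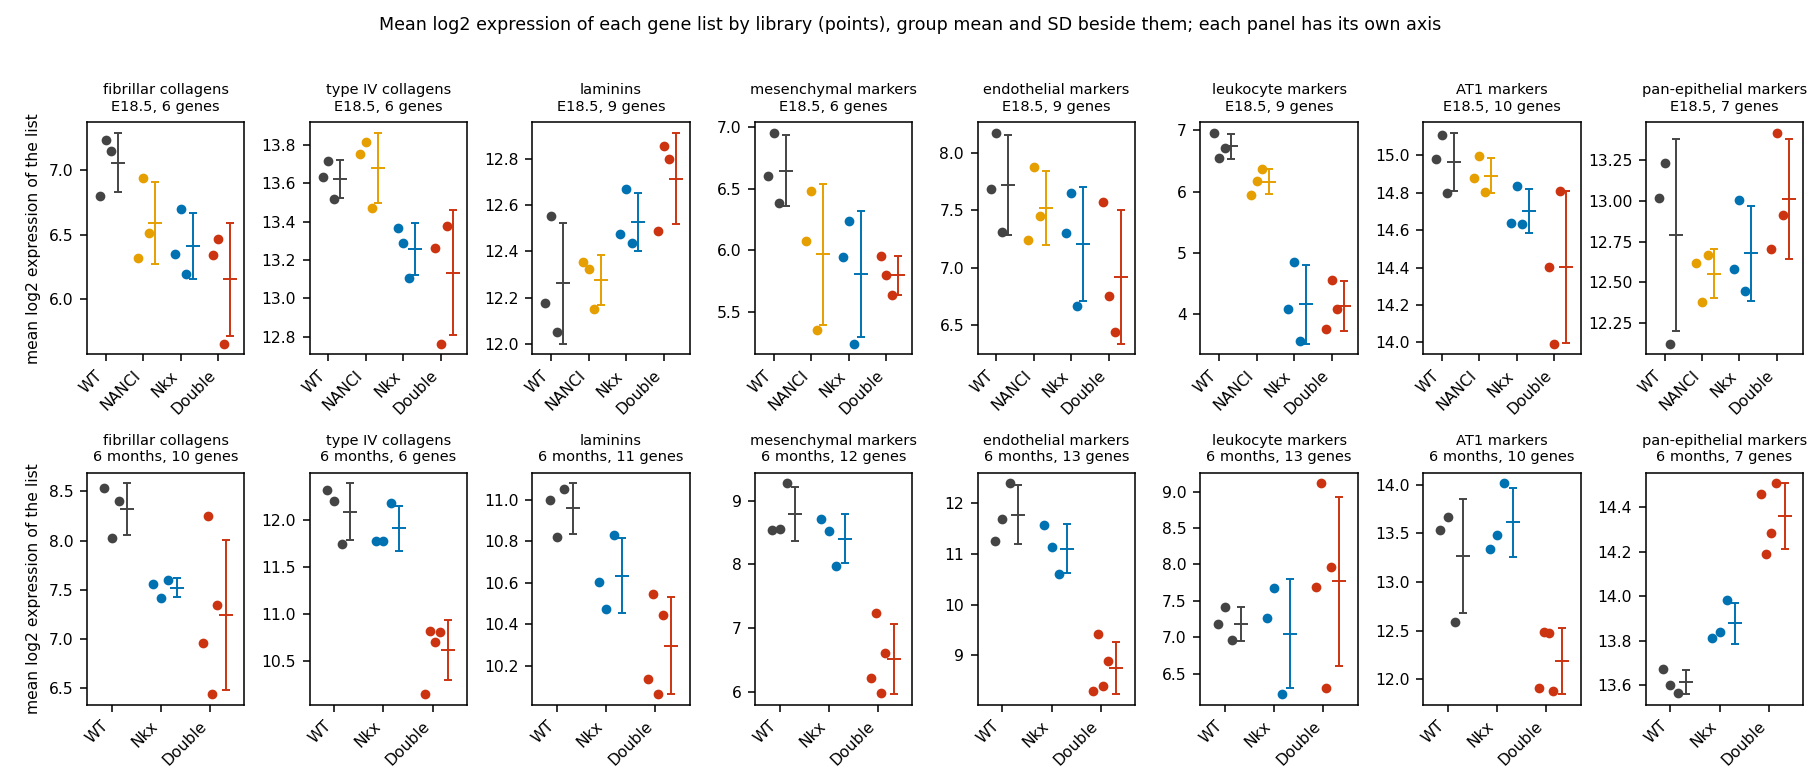
Mean log2 expression per library (vertical axis, own scale per panel) of 3 collagen and laminin lists and 5 marker lists, by genotype at both ages, with the group mean and SD beside the points. At 6 months the endothelial list of the Double libraries (8.30 to 9.41) and the mesenchymal list (5.99 to 7.24) lie under all WT libraries (11.25 to 12.39 and 8.55 to 9.27).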

How the data were processed

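Each library had 1 deposited log2 expression value per gene, which the authors had made with equal distributions within an age, as quantile normalization gives; this was read from the values. STAR and limma stand in the submitters' processing notes beside the mm9 build. No source used here gives their versions and roles, strandedness or the filter on genes. The lowest value of a library was taken as 0 reads, which is inferred. Symbols, coordinates and exon lengths came from GENCODE M21 on GRCm38 (13638 and 15353 IDs with a symbol).

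One limma 3.58.1 model (R 4.3.3) per age, with mean-variance trend and all libraries, was fitted to all genes, and p-values were Benjamini-Hochberg adjusted over them, with a threshold of 0.05. Tests were tried on simulated data. Members and lists were chosen with earlier results of these data known. Named are all members that passed, the highest per family, the type IV pairs and main laminin chains, and up to 3 genes per other list. One laminin gene, counted in all totals, is not reported here. No label says that replicate numbers pair libraries. Only for E18.5 Nkx and Double did deviations of libraries with the same number correlate above 0 in all 3 pairs (0.18 to 0.504). The alternatives were only the groups compared, a replicate block, no trend, genes with a mean of at least 5, centring on housekeeping genes, sex or depth as a covariate, library weights and each library left out. Chosen after seeing the data were leaving out both low-Col6a1 libraries and the block with only E18.5 Double and Nkx.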

Additional observations from a re-analysis of the deposited data

Results flagged for a closer look

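In the 6-month Double libraries Col4a3 was 8.794 in replicate 1 and 9.69 to 9.86 in the other 3, a gap larger than Dixon's critical value for a group of 4. This was the 1 such member among 52 examined, and chance gives about 1 in 20. Against WT, 3 members moved in opposite directions at the 2 ages in every library. The share of all genes that did so was not computed, so this count cannot be called particular to these members. Lama2 in Nkx was 1.318 at E18.5 and -0.4794 at 6 months, with neither past the threshold. Lamc1 in Nkx was 0.7104 and -0.5836, and Lama4 in Double was 1.382 and -2.051. The differences between ages were not tested, since the ages were normalized separately and enriched by different methods.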

How the results depend on the processing

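All 59 called member results kept their direction under every alternative run, and 39 kept their call: 20 of 23 in 6-month Double against WT, 15 of 21 in Double against Nkx, 4 of 8 in E18.5 Double (Col14a1, Col4a1, Lama4 and Lamc1), 0 of 4 in E18.5 Nkx and 0 of 3 in 6-month Nkx. Library weights raised the counts of members called, to 3 from 0 in NANCI, 12 from 4 in E18.5 Nkx, 22 from 8 in E18.5 Double and 5 from 3 in 6-month Nkx. With only the 2 groups compared, the counts were 1 in E18.5 Nkx and 7 in 6-month Nkx. Without the mean-variance trend 6-month Nkx gave 1. With a replicate block, counts were 4 in E18.5 Nkx, 10 in E18.5 Double and 0 in E18.5 Double against Nkx (0 also with only these groups). At 6 months they were 1 in Nkx, 22 in Double and 16 in Double against Nkx. The numbers are not known to pair libraries at either age. Without both low-Col6a1 libraries E18.5 Nkx gave 2, and Col6a1 in E18.5 Double turned from 0.14 to -1.50 (adjusted p = 0.0237). With 1 library left out the counts ran from 1 to 6 in E18.5 Nkx, 6 to 11 in E18.5 Double, 0 to 2 in 6-month Nkx, 21 to 26 in 6-month Double and 16 to 23 in Double against Nkx. They stayed at 0 for NANCI and E18.5 Double against Nkx. The fibrillar median minus the basement membrane median was -0.25 in E18.5 Double against Nkx (-0.73 with library weights, -0.60 to 0.07 with 1 library left out). It was 0.27 in 6-month Double against WT (-0.15 with sex as a covariate, 0.00 to 0.54) and 0.98 against Nkx (0.49 to 1.21). The causes were not tested. Centring on housekeeping genes shifted all genes by -0.21 in E18.5 Double and -0.22 in 6-month Double against WT. Read totals are unknown, which limits what low members such as Col1a2 at E18.5 can show.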
